A study of Mus musculus with 4 samples.

Results

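Sox4 and Sox11 are 2 of the 15305 gene rows of a count table of 82 single mouse cells, chosen by name because both stood out in these cells in earlier results. Their values therefore chose them, and every level below is a description without a test. The animals carried Penk-Cre and the Ai9 reporter. In them, Cre made under control of Penk, the proenkephalin gene, turns on the red reporter tdTomato. A sorted cell therefore marks Penk expression at some time in that cell or in a cell it descends from. The labels give the genotype as WT and the tissue as SVZ/striatal, that is, the subventricular zone, the neurogenic niche along the lateral ventricle, with the adjoining striatum. Dataset A (41 cells, 1 plate) was sorted as tdTomato+ and CD11b-, which removes cells with this microglial surface protein, and dataset B (41 cells, 4 plates) took all tdTomato+ cells. For each dataset the labels list a Neuroblast sample and a sample of quiescent subventricular stem cells, but column names give only dataset, plate and well. No column could be assigned to a labelled sample, and the number of sorts and the number, sex and age of the animals are not given in the sources used here.

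Sox4 and Sox11 belong to the SoxC group of SRY-related transcription factors, which bind DNA through a high-mobility-group domain and carry an activating region at their C-terminal end. Both are single-exon genes. In the embryonic and adult brain they are known for their expression in neuronal precursors that are leaving the cell cycle, where they activate genes of early neuronal differentiation such as Tubb3 and Dcx. Sox12 is the remaining SoxC gene, while SoxB genes such as Sox1 and SoxE genes such as Sox9 are associated with neural stem cells and glia.

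The pair moved together between cell classes from separate loci, so the sequence just before each start site is shown. Each line gives the 250 bases before the start on the gene's own strand, 5′ to 3′, from RefSeq on GRCm38.p6, at chr13:28953700-28953949 for Sox4 and chr12:27342719-27342968 for Sox11, both on the minus strand. Capitals mark the letters CCAAT, the CCAAT box, read on either strand (ATTGG on the strand shown).
Sox4: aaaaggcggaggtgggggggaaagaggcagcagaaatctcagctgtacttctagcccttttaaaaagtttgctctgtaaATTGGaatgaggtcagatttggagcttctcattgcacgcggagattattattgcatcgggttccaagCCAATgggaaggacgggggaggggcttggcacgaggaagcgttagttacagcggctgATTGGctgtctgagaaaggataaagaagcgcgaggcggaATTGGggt
Sox11: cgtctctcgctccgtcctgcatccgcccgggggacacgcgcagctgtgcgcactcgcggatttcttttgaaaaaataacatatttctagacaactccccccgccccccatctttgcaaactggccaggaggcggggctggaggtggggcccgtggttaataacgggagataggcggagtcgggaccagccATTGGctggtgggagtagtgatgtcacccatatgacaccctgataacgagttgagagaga

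The Sox4 stretch holds 4 CCAAT matches, at 171, 104, 47 and 8 bases before the start site counted to the first base of each match, and the Sox11 stretch holds 1, at 60 bases before it. Of 32851 promoters of this length in the table, 33.8% hold at least 1 such match and 0.840% hold 4 or more. The E-box letters CANNTG, which read the same on both strands, occur once in Sox4 and in 2 places in Sox11. Of all promoters, 66.2% hold at least 1 and 31.8% hold 2 or more. GC content is 50.8% for Sox4 and 58.0% for Sox11, with a median of 52.4% over all promoters. The motifs were chosen after these sequences had been seen, and a match in letters is not a binding site.

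Cells were grouped on other genes, with Sox4 and Sox11 left out. A neuroblast-like group of 35 cells (10 of dataset A, 25 of dataset B) had 7 genes of a neuroblast marker list among its 10 leading genes. A choroid-plexus-like group of 29 cells (14 and 15) combined clusters of 9 and 20 cells with 6 and 7 genes of a choroid plexus list among their leading genes. The 12 cells of a cluster led by Tsc22d3 (11 and 1) and the 6 cells of a cluster led by Trib2, all of dataset A, were left unnamed. None of these groups is the study's annotation. Median total counts were 1890904 in neuroblast-like and 2216318 in choroid-plexus-like cells, and totals of all cells ran from 530630 to 7765650.

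Some libraries of dataset A shared reads, and this touches the pair. For each library, genes with 1000 or more counts there and with 10 or more counts in at most 10 cells were looked up in every other library, where a library had at least 20 of them. Over 6480 ordered pairs of libraries a median of 7.55% of such genes had any count in the partner. In 8 ordered pairs, all on the plate of dataset A and none in dataset B, at least 90% of them had 10 or more counts in the partner, and 7 libraries were involved. Library G8, a Trib2-led library with 21330 counts of Sox11 and 2045 of Sox4, had 134 such genes. All 134 reached 10 counts in G9 and in H6, and 97.0% did in E10. In H6 these genes stood at a median of 4.43% of their count in G8, where Sox11 stood at 4.65% (992 counts) and Sox4 at 4.94% (101 counts). In E10 the median was 1.51%, with Sox11 at 2.08% (443 counts) and Sox4 at 1.81% (37 counts). In G9 the median was 64.6%, with 84.5% for Sox11 (18032 counts) and 84.7% for Sox4 (1733 counts). Against G9 as the source, the median was 6.98% in H6, with 5.50% for Sox11 and 5.83% for Sox4, and 2.44% in E10, with 2.46% and 2.14%. The source of the pair's counts in these libraries was not tested. Library F6 shared reads with G4, a library with 0 counts of both genes. The 4 libraries on the lower side (E10, F6, G9 and H6, all Trib2-led) were left out as an alternative, chosen after the data were seen, and no neuroblast-like library is among them. One neuroblast-like library, G11 with 21957 counts of Sox11 and 2251 of Sox4, stood on the higher side: all 201 of its genes reached 10 counts in G9, at a median of 3.64% of their count in G11, where Sox11 stood at 82.1% and Sox4 at 77.0%.

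**Figure D1:**
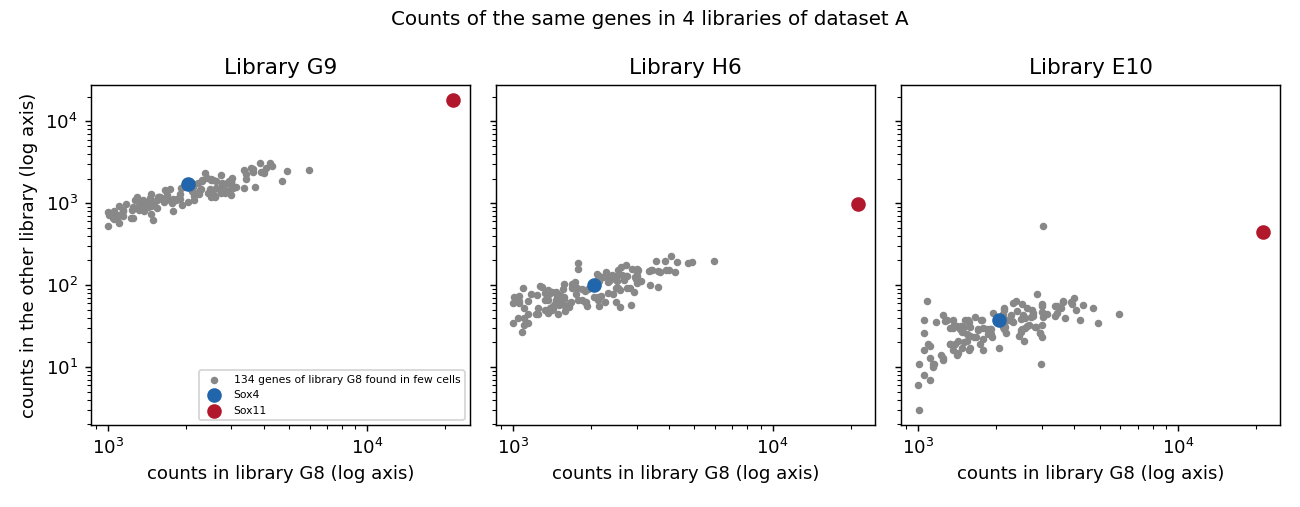
Counts of 134 genes (grey), Sox4 (blue) and Sox11 (red) in library G8 (x, log axis) against their counts in libraries G9, H6 and E10 (y, log axis). Sox4 lies within the band of grey points in each panel, and Sox11, with 21330 counts in G8, lies to the right of it.

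Most cells had either 1000 or more counts or fewer than 10, with Sox4 at intermediate counts more often than Sox11. Sox4 had 0 counts in 34 cells, 1 to 9 in 6, 10 to 99 in 5, 100 to 999 in 8 and 1000 or more in 29. Sox11 had 0 counts in 32 cells, 1 to 9 in 7, 10 to 99 in 3, 100 to 999 in 3 and 1000 or more in 37. With 10 counts as the minimum, Sox4 was detected in 42 of 82 cells (51.2%) and Sox11 in 43 (52.4%). Without the 4 libraries each was detected in 39 of 78.

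The same cells carried both. Sox4 and Sox11 were together at 10 or more counts in 41 cells, Sox4 alone in 1, Sox11 alone in 2 and neither in 38. Without the 4 libraries these numbers were 38, 1, 1 and 38 of 78. All 35 neuroblast-like cells carried both, as did 5 of the 6 Trib2-led libraries and 1 of the 12 Tsc22d3-led cells. None of the 29 choroid-plexus-like cells did. These counts describe the cells at hand. Cells share plates and come from animals of unknown number, so no interval is given for these shares.

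**Figure D2:**
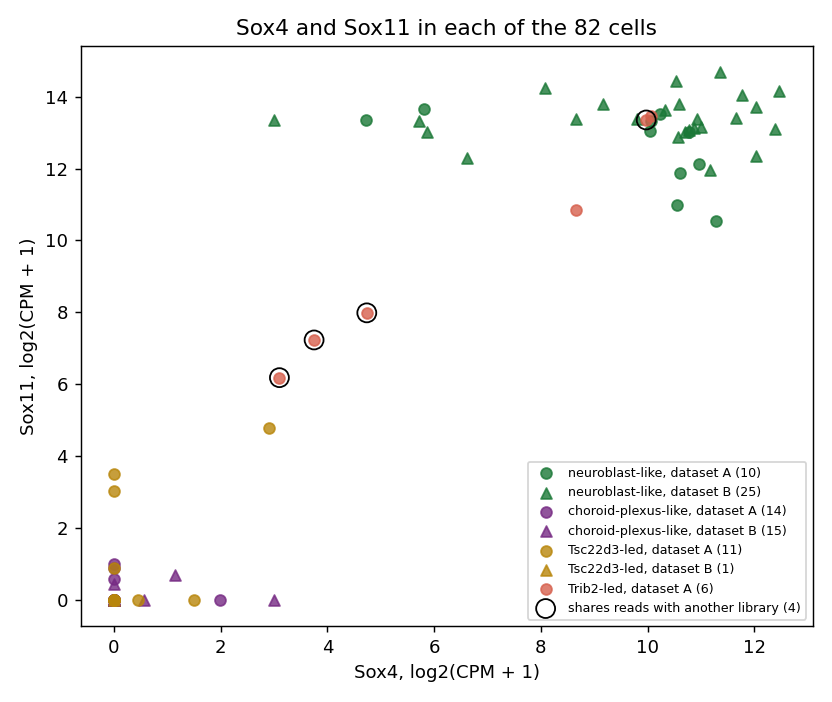
Level of Sox4 (x) and Sox11 (y) in each of the 82 cells, both as log2(CPM + 1), with CPM the counts scaled to a cell total of 1000000; colours give the cell class, circles dataset A, triangles dataset B and rings the 4 libraries on the lower side of read sharing. The 35 neuroblast-like cells lie at the top, spread widely along the Sox4 axis and narrowly along the Sox11 axis.

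By dataset, both genes were detected in 16 of 41 cells of dataset A (39.0%) and in 25 of 41 of dataset B (61.0%). The plates of dataset B differed among themselves, with both genes in 12 of 14 cells on P1, 6 of 6 on P2, 3 of 7 on P3 and 4 of 14 on PL4. Gate and plate cannot be told apart between the datasets. With every cell thinned to 500000 counts, Sox4 reached 10 counts in 36 cells and Sox11 in 41.

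Sox11 was the more abundant of the pair per length of transcript. In neuroblast-like cells its level ran from 1502 to 26188 CPM with a median of 10321 CPM. Sox4 ran from 7.02 to 5653 CPM with a median of 1531 CPM. Divided by exon length in GENCODE vM39 (4.795 kb for Sox4, 8.311 kb for Sox11), the median levels were 319 CPM per kb for Sox4 and 1242 CPM per kb for Sox11. On this scale Sox11 exceeded Sox4 in 30 of 35 cells, with a median ratio of 3.14 and a range from 0.349 to 857. Among 15279 genes ordered by level per length in each of these cells, Sox11 had a median rank of 15 (4 to 316) and Sox4 of 103 (14 to 1457).

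Pooled by class and dataset, the levels separated by several orders of magnitude. Summed counts of the 10 neuroblast-like cells of dataset A gave 1236 CPM of Sox4 and 7395 CPM of Sox11. The 25 of dataset B gave 1872 and 11862 CPM. The 14 choroid-plexus-like cells of dataset A held 8 counts of Sox4 (0.217 CPM) and 5 of Sox11 (0.135 CPM) in all. The 15 of dataset B held 13 counts of Sox4 (0.407 CPM) and 2 of Sox11 (0.0627 CPM). In both datasets the neuroblast-like pool was above the choroid-plexus-like pool for both genes. Over all plates the lowest neuroblast-like cell had 1502 CPM of Sox11 and the highest choroid-plexus-like cell 1.00 CPM. For Sox4 the lowest and highest cells were almost level, at 7.02 CPM (15 counts) and 6.98 CPM (10 counts). How many of all rows keep the classes apart cell by cell was not counted. The ratio of neuroblast-like to choroid-plexus-like CPM for Sox4 was 5702 in dataset A (95% counting interval 2893 to 13210) and 4594 in dataset B (2686 to 8628). For Sox11 it was 54608 in dataset A (23399 to 168183) and, on 2 counts, 189209 in dataset B (52378 to 1562361). Single cells decide these denominators: well E9 held all 8 Sox4 counts of dataset A and D6 held 76.9% of the 13 of dataset B. Without E9 no Sox4 count was left in dataset A, which, against a floor of 3 counts over the pool, puts neuroblast-like cells at least 14101-fold higher. Without D6, 3 counts were left in dataset B and the Sox4 ratio was 19011 (6505 to 92190). For Sox11, leaving out well B8 in dataset A left 3 counts and a ratio of 86101 (29461 to 417517). Leaving out H9 in dataset B left 1 count and a ratio of 344651 (61858 to 13613012).

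The Trib2-led libraries ranged from neuroblast-like levels downward. Their Sox4 levels were 1072 CPM in G8, 1004 in G9, 403 in F7, 25.7 in H6, 12.5 in E10 and 7.58 in F6. Their Sox11 levels in the same order were 11185, 10446, 1832, 252, 149 and 71.6 CPM. G8 and G9 lay within the neuroblast-like range for both genes, F7 did so too, and H6, E10 and F6 lay below the neuroblast-like minimum for Sox11. F7 had the fewest counts of any cell (530630) and had 15 genes of the 34-gene neuroblast list at 10 or more counts. The Tsc22d3-led cells of dataset A were low, at 0.672 CPM of Sox4 and 3.69 CPM of Sox11 when pooled. Well C3 alone held 85.7% of the 14 Sox4 counts and 63.6% of the 77 Sox11 counts of this pool. The 1 Tsc22d3-led cell of dataset B had 0 counts of both. Choroid plexus list genes held 80.2% of the counts of H6 and 13.7% of those of E10. F6 had 19 astroglia-list genes at 10 or more counts. Whether shared reads account for the levels in F7, H6, E10 and F6 was not tested.

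**Figure D3:**
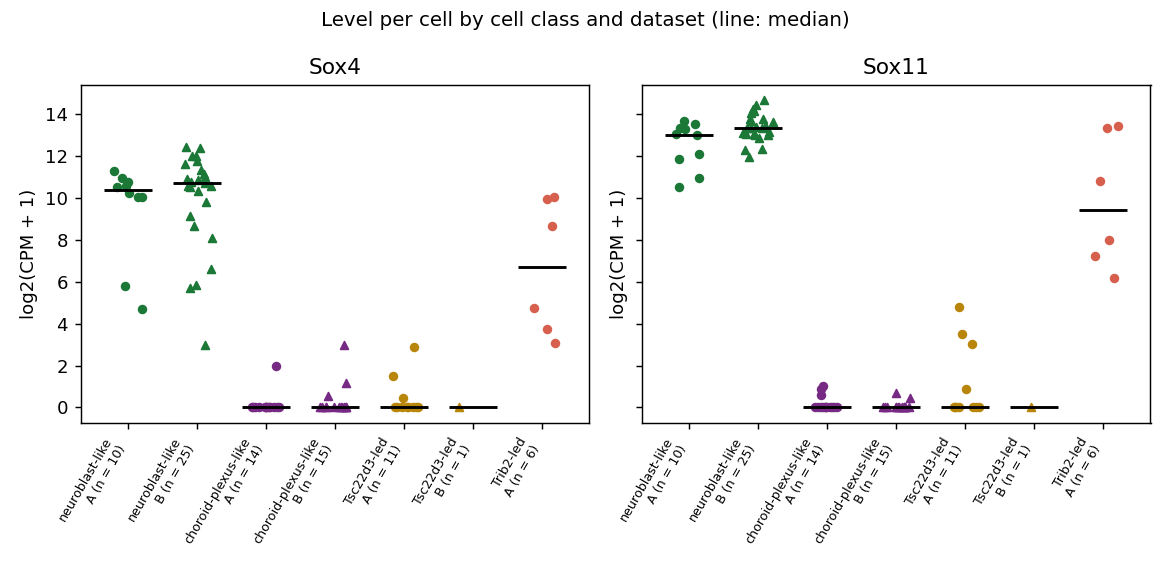
Level per cell of Sox4 (left) and Sox11 (right) as log2(CPM + 1) by cell class and dataset, with a line at the median. Neuroblast-like cells of both datasets are high, choroid-plexus-like and most Tsc22d3-led cells are at or near 0, and the 6 Trib2-led libraries spread from the neuroblast-like range downward.

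Cells with 1 gene of the pair alone were few and low. Well D6 on plate P3 of dataset B, a choroid-plexus-like cell, had 10 counts of Sox4 and 0 of Sox11, so it sat at the detection minimum. Well G7 of dataset A, a Tsc22d3-led cell, had 20 counts of Sox11 (7.14 CPM) and 0 of Sox4. Genes picked by the rule above from several wells of the plate had a count in G7: 68.9% of 106 genes of F5 and 62.1% of 87 of E9, wells with 0 counts of Sox11, and 66.2% of 201 of E11, which had 25926. The origin of the 20 counts was not tested. Library F6 had 85 counts of Sox11 (71.6 CPM) and 9 of Sox4, just short of the minimum. Well E9 of dataset A, just outside as well, had 8 counts of Sox4 and 0 of Sox11. Well C3 of dataset A carried both at low level, with 12 counts of Sox4 and 49 of Sox11, and had 14 neuroblast-list genes at 10 or more counts against a median of 2 in its Tsc22d3-led cluster. No cell with 50 or more counts of Sox4 had fewer than 50 counts of Sox11.

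Among the neuroblast-like cells, Sox4 varied far more than Sox11. Of all rows, 26 (0.17%) had 10 or more counts in every neuroblast-like cell, and both genes were among them. The SD of log2(CPM + 1) was 2.32 for Sox4, the highest of these 26 genes, and 0.88 for Sox11, the fifth lowest. This filter leaves out any gene that falls under 10 counts in a neuroblast-like cell, so Sox4 was not ranked against such genes. Of the 34 genes of the neuroblast list, 5 met the filter. Dcx, Tubb3 and Rtn1 did not, and their lowest level in these cells was 0 CPM. The rank therefore does not show that Sox4 varied more than neuroblast genes in general. The highest cell exceeded the lowest by 805-fold for Sox4 and by 17.4-fold for Sox11 in CPM. For Map1b, a microtubule-associated protein gene, the SD was 0.87 and the fold 15.4. For Nfib, a transcription factor gene of the niche, the SD was 1.90. Only 7 rows (0.0457%) also had 10 or more counts in at most 10% of choroid-plexus-like cells. They were Sox4, Sox11, Nnat, Ncam1, Srsf2, Dpysl2 and Tmsb4x, a list that these cells themselves chose.

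A tail of 6 cells carried the spread of Sox4. These cells had less than 100 CPM of Sox4, a line drawn after the values were seen. The remaining 29 ran from 269 to 5653 CPM of Sox4 and from 1502 to 26188 CPM of Sox11. Well H5 on plate PL4 had 15 counts of Sox4 (7.02 CPM) beside 22278 of Sox11 (10432 CPM). Well B11 of dataset A had 38 counts of Sox4 (25.4 CPM) beside 15478 of Sox11 (10354 CPM). The other 4 were H2 on P1 at 51.9 CPM of Sox4, E11 of dataset A at 55.2, A4 on P2 at 57.6 and C10 on P3 at 97.7. They came from all 5 plates.

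Sox11 in these 6 cells did not stand apart. It ran from 5025 to 13001 CPM with a median of 10338 CPM, within the range of the other 29 cells, whose median was 10259 CPM. The 6 cells had a median of 21 genes of the neuroblast list at 10 or more counts (12 to 29), against 24 (14 to 32) in the other 29. One of the 6, well A4 of dataset B (no CD11b gate), also had 18 of 20 microglia-list genes at 10 or more counts. The list held 0.0276% of its counts. The other 29 cells had at most 5 such genes and at most 0.0801% of their counts in the list. Without A4 the remaining 5 cells had 5025 to 13001 CPM of Sox11 (median 10354) and 18 to 29 neuroblast-list genes. Over the 34 neuroblast-like cells without A4 the SD of log2(CPM + 1) was 2.25 for Sox4 and 0.89 for Sox11, and the pair's Spearman correlation was -0.08. Median total counts were 2173635 and 1863688 in the 6 and the 29 cells, and median genes per cell 1733 and 1773. Their totals ran from 1494919 (B11) to 2499570 (A4), and the part of depth in the tail was not tested.

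**Figure D4:**
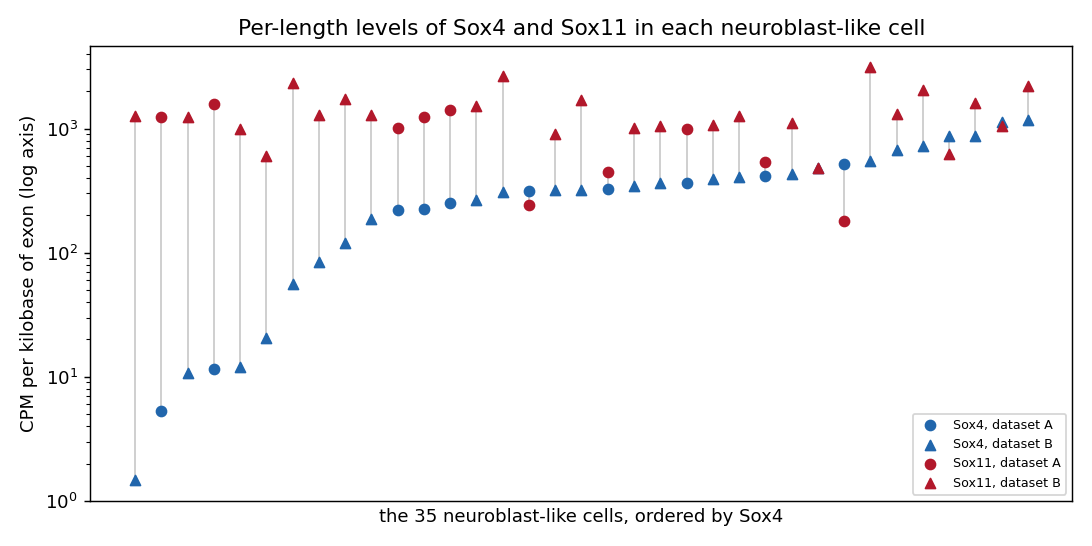
Sox4 (blue) and Sox11 (red) in CPM per kilobase of exon (y, log axis) in each of the 35 neuroblast-like cells, ordered along x by Sox4, with circles for dataset A and triangles for dataset B. The 6 cells on the left have Sox4 under 100 CPM while their Sox11 lies among the values of the other cells.

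At the opposite end, Sox4 exceeded Sox11 per length in 5 cells. Well G3 of dataset A had 2482 CPM of Sox4 and 1502 CPM of Sox11, the lowest Sox11 level of the 35 and a per-length ratio of 0.349. The others were C1 on P1 (ratio 0.712), B4 of dataset A (0.778), H8 on PL4 (0.937) and G10 on P2 (0.994). Sox11 was at 2018 CPM in B4, 3973 in G10, 5190 in C1 and 8703 in H8, the last above the lower quartile of the 35 cells (8287 CPM).

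Levels of the 2 genes went together across all cells and not within the neuroblast-like class. Over all 82 cells the Spearman correlation of their CPM was 0.83 (0.82 in 78 cells without the 4 libraries). Over the 41 cells with both at 10 or more counts it was 0.18, and 0.06 in 38 cells without the 4 libraries. Pearson's r of log2(CPM + 1) in the same cells was 0.51 and 0.35. In the 35 neuroblast-like cells the Spearman correlation was -0.05 and Pearson's r -0.08. These cells share plates and gates, and Sox4 also had a correlation of -0.34 with the total count of a cell there. By dataset the Spearman correlation was -0.78 in the 10 cells of dataset A and 0.09 in the 25 of dataset B, with Pearson's r at -0.55 and 0.12. Without the 2 cells farthest from the median of Sox4 the Spearman values were -0.69 in 8 cells of dataset A and 0.07 in 23 of dataset B. Over cells with 100 CPM or more of Sox4 they were -0.69 in 8 and -0.13 in 21. The sign in dataset B thus changed with the cells kept, and its values were small in size throughout. With so few cells the difference between datasets was not tested.

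A gene on the opposite strand overlaps Sox4. A330102I10Rik shares 907 exon bases with Sox4 in GENCODE vM39, and the strand setting of the counting is not given in the sources used here. It had 10 or more counts in 3 cells, wells C7 (1766 counts beside 1585 of Sox4), C9 (1131 beside 2810) and D9 (1741 beside 1482), all neuroblast-like and of dataset A. Without the strand setting, reads of the overlap cannot be told apart, so Sox4 counts and levels per length may be affected in any cell. The Sox4 tail described above does not include those 3 cells, and the part of the overlap in it was not tested.

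Other members of the SOX family were detected at about the rate of all rows. Rows for 6 of 17 listed genes were analysed. Sox12, the remaining SoxC gene, had 10 or more counts in 1 neuroblast-like and 1 choroid-plexus-like cell. Sox1 reached that count in 3 neuroblast-like cells, Sox5 in 8 cells (2 neuroblast-like, 3 choroid-plexus-like, 2 Tsc22d3-led and 1 Trib2-led), Sox8 in 2 Tsc22d3-led cells and Sox15 in none. Over all 15305 rows, 385 (2.52%) had 10 or more counts in at least 50% of neuroblast-like cells, and none of these 6 genes was among them. The median share of neuroblast-like cells with 10 or more counts was 4.29% over the 6 genes and 2.86% over all rows, so their low detection is not particular to them.

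Sox9, a SoxE gene of stem cells and glia, showed another distribution than the pair. It had 10 or more counts in 30 cells, of which 18 were choroid-plexus-like, 7 neuroblast-like, 3 Tsc22d3-led and 2 Trib2-led. All 7 neuroblast-like cells with Sox9 carried Sox4 and Sox11 too. Their Sox11 median was 8263 CPM against 10488 CPM in the 28 neuroblast-like cells under 10 counts of Sox9, and the ranges overlapped. Their Sox4 median was 1497 CPM against 1541 CPM.

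Genes reported elsewhere to be activated by SoxC factors were detected unevenly in neuroblast-like cells. Map2, a dendritic microtubule-associated protein gene, had 10 or more counts in 30 of the 35 cells. Tubb3, the neuronal beta-tubulin, had them in 27 and Dcx, the microtubule-binding doublecortin, in 23. Ezh2, a Polycomb methyltransferase, had them in 5 cells and Tead2, a Hippo pathway transcription factor, in 1. In choroid-plexus-like cells Tubb3, Dcx and Ezh2 were at 10 or more counts in no cell and Map2 and Tead2 in 1 each. By this measure 3 of the 5 genes reached 50% of neuroblast-like cells at no more than 10% of choroid-plexus-like cells, as did 99 (0.647%) of all rows. Dcx, Tubb3 and Map2 are in the neuroblast list that named the class and were not left out of the clustering, so their detection in it is not independent of it.

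Levels of these genes did not follow the pair closely from cell to cell. Over the 42 cells with 10 or more counts of Sox4, Spearman correlations with Sox4 ran from 0.15 for Dcx to 0.38 for Map2 among the 3 genes detected in at least 50% of those cells. Their median was 0.15, against 0.02 over all 417 genes that met this filter. With Sox11, over 43 cells, they ran from -0.04 for Dcx to 0.25 for Map2 with a median of 0.07, against 0.11 over all 389 genes. None reached 0.5 in size.

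Neurogenic transcription factors of the subventricular zone were compared in the same way. Of 37 listed, 32 had a row and 11 met the filter with each gene of the pair. With Sox11 all 11 correlations were positive, from 0.05 for Zeb2 to 0.40 for Sp8, with a median of 0.25, where 73.5% of all 389 genes were positive. With Sox4, 8 of 11 were positive, from -0.13 for Nfix to 0.35 for Dlx1, with a median of 0.10, where 55.6% of all 417 genes were positive. Within the 35 neuroblast-like cells the medians fell to 0.08 with Sox11 and -0.02 with Sox4. None of these genes reached 0.5 in size in either set of cells.

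Correlations with Sox4 and Sox11 were also taken for cytoskeleton, adhesion and interneuron lists. Of cytoskeletal genes of migrating neurons, 15 were compared with Sox4 (median 0.06) and 14 with Sox11 (median 0.23), and 1, Map1b with Sox11, reached 0.5, as did 4 of all 389 genes (1.03%). That value fell under 0.5 without the 4 libraries (0.41) and in neuroblast-like cells (0.26). Adhesion and guidance genes gave medians of 0.19 with Sox4 and 0.06 with Sox11 over 4 genes each. Genes of maturing interneurons gave 0.17 and 0.07 over 3 genes each. No stem cell Sox or Notch gene met the filter with either.

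Few genes followed the level of Sox4 closely. Over its 42 cells the highest Spearman correlations were those of Rtn1, a reticulon of the endoplasmic reticulum (0.50), and Ythdf2, a reader of methylated RNA (0.47). Birc6, a ubiquitin ligase that blocks apoptosis, followed with 0.44, and then Luc7l3, Myef2, Zfp207, Tial1, Cd1d1, Nnat and Rtn3 between 0.42 and 0.38. At 0.5 or more stood 1 of 417 genes (0.24%), Rtn1. Rtn1 and Nnat belong to the neuroblast list used to name the class. Sox11 itself was at rank 51 with 0.23, and at 0.59 by Pearson's r of log2(CPM + 1).

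The 2 lowest correlations with Sox4 were larger in size than the 2 highest. Ndufb8, a subunit of respiratory complex I, had -0.60 and Rpl35, a ribosomal protein gene, -0.58, the 2 genes (0.48%) at -0.5 or less. Tma7, a gene of the translation machinery, Atp5me, a subunit of ATP synthase, and Cox6a1, of cytochrome oxidase, had -0.44, -0.42 and -0.41. Without the 4 libraries, in 39 cells, Ndufb8 had -0.60, Rpl35 -0.53 and Rtn1 0.43. Within the 35 neuroblast-like cells these were -0.59, -0.43 and 0.35. Pearson's r of log2(CPM + 1) over the 42 cells turned the order, with -0.33 for Ndufb8 and -0.53 for Rpl35 against 0.60 for Rtn1 and 0.65 for Nnat.

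With Sox11 the 4 genes at 0.5 or more were Ppp6r2, a regulatory subunit of a protein phosphatase (0.56), Gnb1, a G protein beta subunit (0.56), St13, a heat-shock co-chaperone (0.52), and Map1b (0.52). Nudt3, Paip1, Nrep, Actb, Gsk3b and Trim2 followed between 0.49 and 0.46. Map1b and Nrep are in the neuroblast list. Sox4 was at rank 65 with 0.28, and at 0.69 by Pearson's r of log2(CPM + 1). At -0.5 or less stood 3 genes (0.771%), Gm15266 (-0.52), Gm26461 (-0.51) and the mitochondrial ribosomal RNA gene mt-Rnr1 (-0.50), followed by Cox4i1 of cytochrome oxidase (-0.47) and the splicing cofactor gene Son (-0.35).

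Several of these values were smaller in size without libraries outside the neuroblast-like class. The genes were picked as extremes in the full set, and the cause of the change was not tested. Without the 4 libraries the correlation of Gnb1 with Sox11 went from 0.56 to 0.47 and that of Map1b from 0.52 to 0.41, while Ppp6r2 stayed at 0.54 and St13 at 0.54. Without these libraries 2 of 364 genes (0.549%) were at 0.5 or more with Sox11 and 1 (0.275%) at -0.5 or less. By dataset, Gnb1 had 0.82 with Sox11 in dataset A (18 cells) and 0.10 in dataset B (25 cells), and Map1b had 0.62 and 0.29. The 18 cells of dataset A include 6 Trib2-led and 2 Tsc22d3-led ones, while all 25 of dataset B are neuroblast-like. These sets therefore differ in class as well as in dataset. Within the 35 neuroblast-like cells Ppp6r2 had 0.52, St13 0.49, Gnb1 0.33 and Map1b 0.26, and Cox4i1 had -0.50. Birc6 and Zfp207, named with Sox4, had 0.42 and 0.39 with Sox11.

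**Figure D5:**
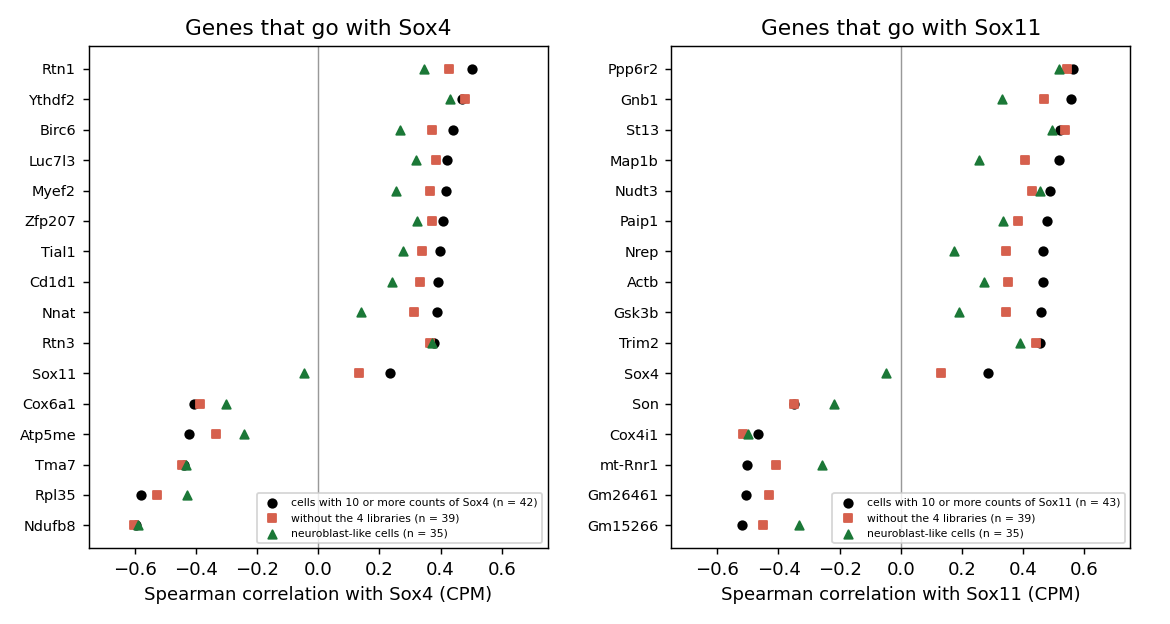
Spearman correlation of CPM with Sox4 (left) and Sox11 (right) for the 10 highest and 5 lowest genes and the other gene of the pair, in cells with 10 or more counts (black), without the 4 libraries (red) and in neuroblast-like cells (green). Most values move toward 0 in the smaller sets. Some stay near theirs, among them Ndufb8, Tma7 and Rtn3 with Sox4 and Ppp6r2 and St13 with Sox11. Cox4i1 with Sox11 lies farther from 0 in both smaller sets.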

How the data were processed

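The table deposited by the authors holds raw read counts, 1 column for each of 82 sorted cells, and the values are whole numbers with unequal totals. The submitters' processing notes name FastQC 0.12.1, STAR 2.7.10b and featureCounts of Subread 2.1.1, and both GRCm39 and mm10 without saying which served the counting. Per the labels' protocols, cDNA was made from polyadenylated RNA with a template-switching oligo and preamplified. No molecular identifiers are mentioned, so the intervals of the pooled ratios cover counting error only.

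Here counts were scaled to CPM and taken as log2(CPM + 1). Clusters came from the 1500 most variable of 8023 genes found in 5 or more cells, on 10 principal components and a Ward tree divided into 5. No cell was filtered out and no doublet caller was run. Correlations used genes with 10 or more counts in at least 50% of the cells. Named genes are the pair, the 10 highest and 5 lowest correlations with each, and members of the lists. Wells C7, C9, D9 and those described singly were picked after their values were seen.

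No test was made: cells are not replicates, labelled samples could not be mapped to cells, and the genes were chosen for their pattern. The members, the 10 marker lists and the 7 gene lists were chosen with earlier results of these data known. The read-sharing rule (a looser rule on any count was looked at first), the 0.5 mark, the 100 CPM line, the detection rules and the motifs were chosen after values or sequences were seen. Correlation code was tested on simulated data. Tools were pandas 2.3.3, scipy 1.17.1, numpy 2.4.6 and matplotlib 3.10.9 under Python 3.11.15.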

Additional observations from a re-analysis of the deposited data

How the results depend on the processing

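Alternatives were a count minimum of 1, 3, 50 or 100, a minimum of 10 CPM, thinned cells, each dataset or cell set alone, other clusterings and scalings, other gene filters, leaving out each plate of dataset B, and leaving out the 4 libraries or the 6 Trib2-led ones (the last 2 chosen after the data were seen). Sox4 was detected in 39.0% of dataset A cells and in 63.4% of those of dataset B. The share with Sox4 alone was 0% at minimums of 50 and 100 counts or of 10 CPM, in thinned cells and in dataset A. The share with Sox11 alone was 8.54% at a minimum of 1 count and 0% in dataset B, and neither gene was found in 32.9% of cells at a minimum of 1. The correlation of the pair over all cells was 0.94 as Pearson's r of log2 values and 0.77 in dataset B. In neuroblast-like cells it was -0.78 in dataset A.

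Neuroblast-like levels were 1236 CPM (Sox4) and 7395 CPM (Sox11) in dataset A alone, against 1716 and 10766 CPM overall. Choroid-plexus-like levels were 0 CPM as medians for both genes, and 0.163 CPM of Sox4 without its highest cell, against 0.305 CPM. The mean log2 difference between these classes was 9.57 for Sox4 and 13.02 for Sox11, and 6.51 and 9.81 with a pseudocount of 10. With 500 variable genes the neuroblast-like cluster held 23 cells (21 of the 35), and with 6 or 7 clusters 18, all among the 35.

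Genes at 0.5 or more in size with Sox4 numbered 3 of 417, and 9 of 417 with Pearson's r. They were 5 of 1503 with genes in 25% of cells and 10 of 7919 unfiltered. By cell set they were 44 of 525 in dataset A (16 cells), 7 of 476 in dataset B and 1 of 384 in neuroblast-like cells. Without plate P1 they were 8 of 372, and without P2 6 of 432. With Sox11 they numbered 7, and 38 with Pearson's r, 11 and 4 with genes in 25% and 75% of cells, 29 unfiltered, 82 in dataset A (18 cells), 2 in dataset B, 15 without P1, 12 without P2, 2 in neuroblast-like cells, 3 without the 4 libraries and 4 without the 6. Numbers tested also differed between settings with Sox11, so its counts are not shares. The causes were not tested. For the 30 genes named as highest or lowest, the pair itself left out, 27 of 27 values kept their sign in dataset A and 26 of 29 in dataset B. So did 29 of 29 in neuroblast-like cells, 30 of 30 by Pearson's r and 30 of 30 without the 4 libraries. These genes were picked as extremes over cells that contain every one of these sets. Kept signs were therefore favoured in advance and are not independent support. Other gene filters, and keeping cells with 1000 or more genes, could not change a value and show nothing on sign. The exceptions, all in dataset B, were mt-Rnr1 with Sox11 (0.017), Nnat with Sox4 (-0.0051) and Nrep with Sox11 (-0.0054). The correlation of Sox11 with Sox4 itself went from 0.23 to -0.05 in neuroblast-like cells. With 82 cells under 2 gates, depth and number limit every share and correlation above.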
